A study of Mus musculus with 12 samples.

Results

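A group of 10 genes was followed from mouse to mouse in the livers of adult male offspring, namely Cd163, Clec4f, Vsig4, Timd4, Cd5l, Marco, Folr2, Adgre1, Csf1r and Id3, out of the 52636 genes counted. They were taken by name, as genes by which Kupffer cells are commonly recognised, and their fragments were read from the reverse-strand count of each library. The libraries came from 12 mice of the C57Bl/6J strain at 16 weeks of age, 1 library per mouse, from the left lateral lobe of the liver. The 6 VDD-F1 mice were sons of dams kept on a vitamin D deficient diet, supplemented with calcium gluconate, before mating and through pregnancy, and the 6 VDS-F1 mice were sons of dams on the nutrient-matched vitamin D sufficient diet. The sires had a control diet, every dam received the sufficient diet once the pups were born, and all offspring were fed it after weaning, so the groups share the diet of later life. Because vitamin D recovers slowly after the change of diet, the study notes that VDD-F1 pups were also short of it in early postnatal life, and prenatal and neonatal exposure cannot be told apart. Whether littermates are among the mice of a group is not given in the sources used here, so p-values measure the spread between these mice. The study's supplement records a liver weight for 7 mice, which are VDD4, VDD5 and VDD6 with VDS3, VDS4, VDS5 and VDS6, and none for the other 5 (VDD1 to VDD3, VDS1 and VDS2), and both sets are given beside the whole comparison. The RNA is that of whole liver tissue, with no sorting of cells.

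Kupffer cells are the macrophages that live inside the liver sinusoids, where they take up debris, aged red cells and bacteria from the portal blood. Most are seeded before birth and renew themselves, and their identity is held by signals from neighbouring endothelial, stellate and parenchymal cells together with macrophage transcription factors such as PU.1 and the liver X receptor. When resident cells are lost, monocytes from the blood can enter the niche and take on part of the same programme, with some of the genes, such as Timd4, acquired late. Since whole tissue was sequenced, fewer Kupffer cells and less RNA of a gene per cell cannot be told apart in any result that follows.

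Cd163, the scavenger receptor for haemoglobin bound to haptoglobin, separated the livers into high and low ones. Its level was 0.892 to 2.84 CPM (fragment counts scaled to the library size after TMM normalization) in VDD2, VDD4, VDD5 and VDD6, against 10.8 to 21.7 CPM in every other liver of either diet. Clec4f, Timd4 and Folr2 were lower in the VDD-F1 mean by less, Cd5l, Vsig4 and Csf1r by less again, and Marco, Adgre1 and Id3 had higher VDD-F1 than VDS-F1 means. Over all 12 mice 0 of the 10 genes passed as a differentially expressed gene (DEG, an adjusted p under 0.05 with a log2-fold change above 1 or below -1), against 0.0402% of all genes tested. In the 7 mice with a recorded liver weight, 6 of the 10 were lower in VDD-F1 at an adjusted p under 0.05, against 5.12% of all genes tested, and 3 of those were DEGs, against 1.24%. In the other 5 mice 0 of the 10 reached an unadjusted p under 0.05, against 3.79% of all genes in either direction. Cd163 was there at a log2-fold change of -0.39. No diet by set interaction of the 10 passed an adjusted p under 0.05 over all 12 mice (edgeR). At an unadjusted p under 0.05, 2 interactions were lower, against 4.77% of all genes, and 0 higher, against 4.24%.

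The sequences just upstream of the start sites are shown for 4 members that behaved differently: Cd163, with the widest spread between livers, Timd4, with a lower mean in VDD-F1, Vsig4, with a small difference, and Marco, with a difference in the opposite direction. They come from RefSeq on GRCm38.p6, are written 5′ to 3′ on the strand of the gene, and end at the base before the RefSeq start. They lie at chr6:124304401-124304650 (Cd163, plus strand), chr11:46810549-46810798 (Timd4, plus strand), chrX:96293439-96293688 (Vsig4, minus strand) and chr1:120505025-120505274 (Marco, minus strand). Capitals mark GAGGAA, the core of sites bound by PU.1, or AGGTCA, the half-site that nuclear receptors such as the liver X receptor recognise, each searched on both strands (so also as TTCCTC and TGACCT).
Cd163: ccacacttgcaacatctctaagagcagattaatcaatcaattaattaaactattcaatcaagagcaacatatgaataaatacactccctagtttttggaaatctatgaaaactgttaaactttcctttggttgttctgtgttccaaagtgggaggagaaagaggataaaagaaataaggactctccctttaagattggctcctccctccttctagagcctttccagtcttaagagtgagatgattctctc
Timd4: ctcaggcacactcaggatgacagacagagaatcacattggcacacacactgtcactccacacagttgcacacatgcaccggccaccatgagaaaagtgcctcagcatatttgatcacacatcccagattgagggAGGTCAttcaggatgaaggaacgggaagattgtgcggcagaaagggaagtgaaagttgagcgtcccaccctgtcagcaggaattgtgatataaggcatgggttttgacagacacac
Vsig4: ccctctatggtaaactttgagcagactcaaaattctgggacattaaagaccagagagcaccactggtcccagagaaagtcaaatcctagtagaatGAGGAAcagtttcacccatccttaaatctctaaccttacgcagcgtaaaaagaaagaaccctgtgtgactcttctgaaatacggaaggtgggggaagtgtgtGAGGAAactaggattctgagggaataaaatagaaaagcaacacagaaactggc
Marco: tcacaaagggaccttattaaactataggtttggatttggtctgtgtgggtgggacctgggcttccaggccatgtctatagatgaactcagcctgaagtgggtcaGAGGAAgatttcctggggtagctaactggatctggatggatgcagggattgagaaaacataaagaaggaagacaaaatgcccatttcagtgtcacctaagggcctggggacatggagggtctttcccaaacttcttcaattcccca

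Windows of 8 of the 10 members were searched, 9 windows in all, with 2 for Folr2. Csf1r was left out of this search, and no window was available for Adgre1. GAGGAA was present in 4 members, at 155 and 53 bases upstream of the start in Vsig4, 66 in Cd5l, 146 in Marco, and 208 and 201 in Id3. The same letters are in 23.3% of the 32851 windows of 250 bases in the table. AGGTCA was present in Clec4f (22 bases upstream) and Timd4 (116 bases upstream), and in 14.02% of all windows. Neither was in the windows of Cd163 or Folr2, and matches to the 2 motifs did not overlap. Of the members with GAGGAA, Vsig4 and Cd5l had lower and Marco and Id3 higher means in VDD-F1 livers. The windowed members without it (Cd163, Clec4f, Timd4 and Folr2) all had lower means there, as a description of few genes.

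The libraries held 25897868 to 36403413 fragments, of which 14275793 to 20815066 were counted on genes, and 16432 to 18901 genes were detected in each. The tissue label was checked against 7 hepatocyte markers, which summed to 82286 to 110530 CPM in every library. All 10 members passed the filter on low counts (12 or more on average per library), which left 12453 genes. Mean counts ranged from 66.5 for Timd4 to 1152 for Csf1r. In VDS6, 11.1% of fragments fell on no annotated exon of the counted strand, the highest share of any library. VDD2 stood apart in macrophage genes, as given beside the results it touches.

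Levels of different genes were compared per kilobase of exon, in VDS-F1 livers only (SD, n = 6 for each). Cd5l, a secreted scavenger protein that protects macrophages from apoptosis, had the highest level, at 29.6 ± 9.61 CPM per kilobase. Clec4f, a lectin of mouse Kupffer cells, followed at 23.9 ± 4.84, and its range overlapped that of Cd5l. Csf1r, the receptor through which macrophages receive survival signals, was at 13.0 ± 2.58, below Clec4f in every VDS-F1 liver. Vsig4, the complement receptor that binds C3b, was at 12.5 ± 2.69, and Id3, a transcriptional regulator in Kupffer cell development that other liver cells also express, at 11.5 ± 4.24. Adgre1, which encodes F4/80, was at 5.39 ± 1.18, Folr2, the folate receptor beta, at 4.71 ± 1.43, and Marco, a scavenger receptor for bacteria, at 3.15 ± 1.29. Cd163 was at 3.13 ± 0.759 and Timd4, a receptor for phosphatidylserine on dying cells, was lowest at 2.35 ± 1.05 CPM per kilobase. Apart from the step between Clec4f and Csf1r, neighbours in this order overlapped between mice.

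Among the scavenger and phagocytic receptors, Cd163 (ENSMUSG00000008845.9, chromosome 6, 124304656 to 124330527 on GRCm38) showed the widest spread. Its level was 21.3 CPM in VDD1, 1.98 in VDD2, 12.7 in VDD3, 0.892 in VDD4, 2.84 in VDD5 and 1.63 in VDD6. The VDS-F1 livers had 10.8, 20.5, 21.7, 18.9, 16.5 and 13.95 CPM (VDS1 to VDS6). The low livers thus lay below every VDS-F1 liver while VDD1 and VDD3 lay inside the VDS-F1 range, and the ratio of the highest to the lowest liver was 23.9 among VDD-F1 and 2.01 among VDS-F1 mice. The low levels rest on 13 counts in VDD4, 35 in VDD6, 38 in VDD2 and 54 in VDD5, where the lowest count elsewhere was 168. For VDD4 the exact 95% Poisson interval was 0.475 to 1.53 CPM, which covers counting error only.

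Cd163 averaged 6.89 ± 8.32 CPM over the VDD-F1 livers and 17.1 ± 4.14 CPM over the VDS-F1 livers (SD, n = 6 each). The log2-fold change was -1.33 (standard error 0.60), with an unadjusted p of 0.0450 and an adjusted p of 0.302 in the quasi-likelihood test of edgeR, adjusted over all genes by the Benjamini-Hochberg method. With the set of mice as a covariate it was -1.99 (standard error 0.63, edgeR, adjusted p = 0.131). Leaving out VDD1, the VDD-F1 liver with the highest Cd163, moved the log2-fold change to -2.14 (edgeR, adjusted p = 0.0420). In that fit 2 members were DEGs (Cd163 and Folr2, both lower), against 0.385% of all genes tested. With any other single mouse left out, the adjusted p of Cd163 was 0.213 to 0.466 (edgeR). The livers low in Cd163 were those with counts of Cyp2a4, a female-predominant hepatic cytochrome P450. Cyp2a4 had 774 counts in VDD2, 527 in VDD4, 505 in VDD5 and 541 in VDD6, and 0 to 8 counts in every other liver.

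**Figure D1:**
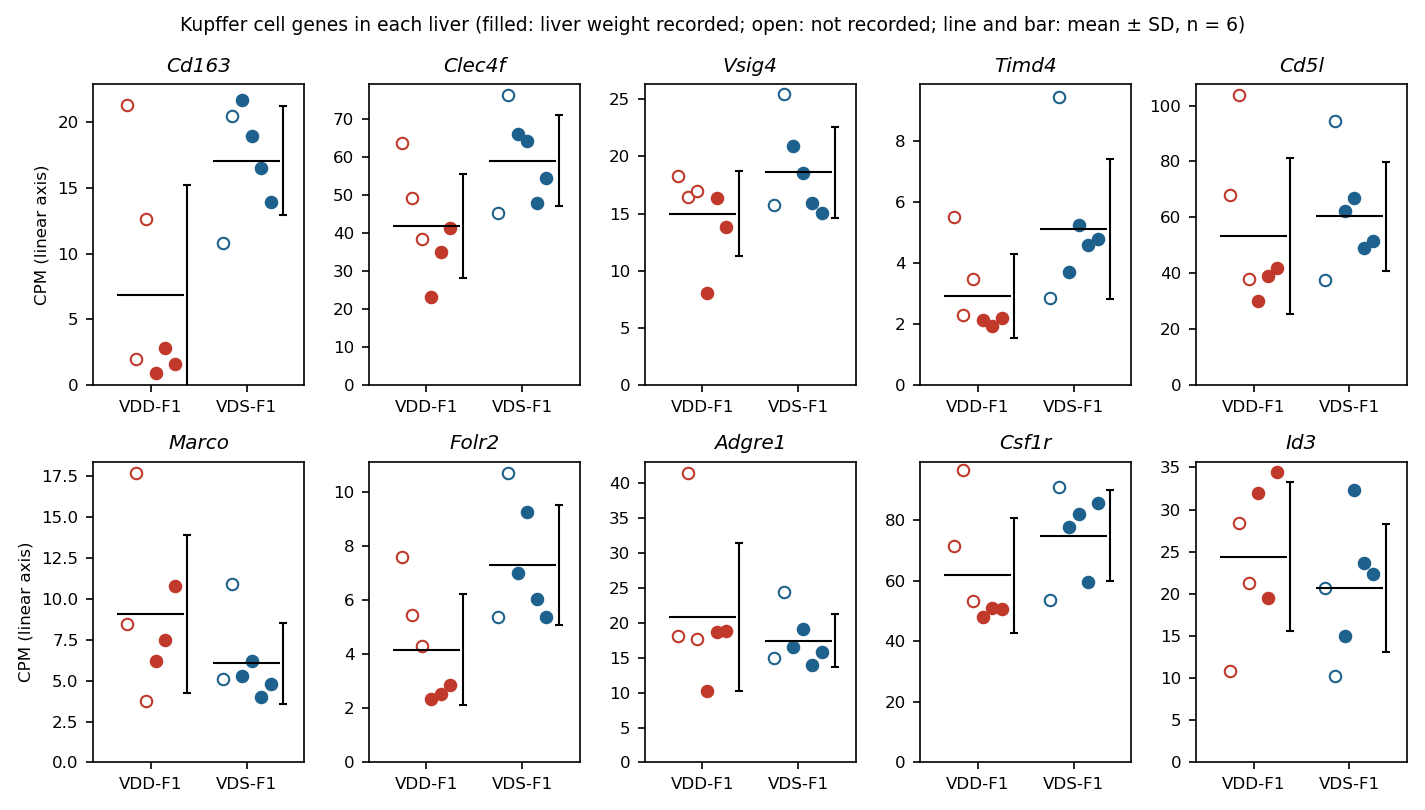
Level of each of the 10 genes (CPM, linear axes from 0) in each liver, with VDD-F1 in red and VDS-F1 in blue, filled where a liver weight was recorded; lines and bars give the mean and SD of 6 livers, and the lower bar of Cd163 in VDD-F1 is cut off at 0. Cd163 splits the VDD-F1 livers into 4 between 0.892 and 2.84 CPM and 2 at 12.7 and 21.3 CPM, and VDD2 stands above all other livers for Adgre1 and Marco.

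Timd4 (ENSMUSG00000055546.6, chromosome 11, 46810800 to 46844332) was at 5.49, 2.30, 3.46, 2.13, 1.95 and 2.19 CPM in VDD1 to VDD6, and at 2.86, 9.44, 3.71, 5.25, 4.58 and 4.79 CPM in VDS1 to VDS6. The livers low in Cd163 were also below every VDS-F1 liver for Timd4, by a smaller step, and VDS2 stood above the rest. Its means were 2.92 ± 1.37 and 5.11 ± 2.29 CPM (SD, n = 6 each). The log2-fold change of Timd4 was -0.81 (standard error 0.32, edgeR, adjusted p = 0.235).

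Marco (ENSMUSG00000026390.7, chromosome 1, 120474538 to 120505024) had the higher mean in VDD-F1. Its level was 8.46, 17.7, 3.77, 6.18, 7.52 and 10.8 CPM in VDD1 to VDD6 and 5.13, 10.9, 5.29, 6.19, 4.03 and 4.79 CPM in VDS1 to VDS6. VDD2 was the highest VDD-F1 and VDS2 the highest VDS-F1 liver, and the groups overlapped. The means were 9.07 ± 4.83 and 6.06 ± 2.48 CPM (SD, n = 6 each), and the log2-fold change of 0.59 (standard error 0.32) did not pass (edgeR, adjusted p = 0.399). Without VDD2 the log2-fold change of Marco was 0.28.

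Clec4f (ENSMUSG00000014542.3, chromosome 6, 83644542 to 83656187) is the member most restricted to Kupffer cells in the mouse. It was at 63.6, 49.3, 38.5, 23.2, 35.0 and 41.2 CPM in VDD1 to VDD6 and at 45.1, 76.3, 66.0, 64.1, 47.8 and 54.3 CPM in VDS1 to VDS6. Of the VDD-F1 livers, VDD3 to VDD6 lay below every VDS-F1 liver, and VDD4, lowest for Cd163 as well, was lowest. The log2-fold change was -0.50 (standard error 0.20, edgeR, adjusted p = 0.249). VDD2, with 1.98 CPM of Cd163, had 49.3 CPM of Clec4f, within the VDS-F1 range.

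Folr2 (ENSMUSG00000032725.10, chromosome 7, 101839988 to 101857194) was at 7.57, 5.43, 4.29, 2.33, 2.52 and 2.84 CPM in VDD1 to VDD6 and at 5.38, 10.7, 7.01, 9.26, 6.04 and 5.37 CPM in VDS1 to VDS6. It was lowest in VDD4, VDD5 and VDD6, whose values lay close together. The log2-fold change was -0.81 (standard error 0.29, edgeR, adjusted p = 0.201), and -1.07 without VDD1 (edgeR, adjusted p = 0.0442). Folr2 overlaps the antisense gene Gm10602, which had 3 to 24 counts on its own strand, and has the pseudogene Gm45319 on the opposite strand between its exons. A count that ignores strand leaves out fragments that fall on both genes, and with it the means of Folr2 were 0.957 CPM (VDD-F1) and 1.44 CPM (VDS-F1) and a log2-fold change of -0.62.

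Vsig4 (ENSMUSG00000044206.3, chromosome X, 96247203 to 96293438) was among the steadiest members. It was at 18.3, 16.5, 16.9, 8.10, 16.4 and 13.8 CPM in VDD1 to VDD6 and at 15.8, 25.4, 20.9, 18.6, 16.0 and 15.02 CPM in VDS1 to VDS6. Apart from VDD4 and VDD6, its VDD-F1 values lay within the VDS-F1 range (log2-fold change -0.31, standard error 0.18, edgeR, adjusted p = 0.427). Cd5l (ENSMUSG00000015854.7, chromosome 3, 87357881 to 87371073) was at 68.0, 104, 37.9, 29.9, 38.9 and 42.0 CPM in VDD1 to VDD6 and at 37.8, 94.3, 62.4, 66.9, 49.1 and 51.5 CPM in VDS1 to VDS6. VDD2 was highest of all and VDD4 lowest, and the log2-fold change was -0.18 (standard error 0.29, edgeR, adjusted p = 0.814).

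Adgre1 and Csf1r mark macrophages in general, Kupffer cells included. Adgre1 (ENSMUSG00000004730.14, chromosome 17, 57358691 to 57483527) was at 18.1, 41.5, 17.6, 10.3, 18.6 and 18.8 CPM in VDD1 to VDD6 and at 14.9, 24.4, 16.6, 19.1, 13.96 and 15.8 CPM in VDS1 to VDS6. VDD2 stood far above the other VDD-F1 livers, and the log2-fold change of 0.26 (standard error 0.26, edgeR, adjusted p = 0.671) changed sign without VDD2, to -0.067. Csf1r (ENSMUSG00000024621.15) was at 71.3, 96.5, 53.3, 48.0, 51.0 and 50.6 CPM in VDD1 to VDD6 and at 53.7, 90.8, 77.5, 82.1, 59.5 and 85.5 CPM in VDS1 to VDS6. VDD3 to VDD6 lay below every VDS-F1 liver while VDD2 lay above them (log2-fold change -0.28, standard error 0.18, edgeR, adjusted p = 0.490). Csf1r overlaps Hmgxb3 on the opposite strand and Mir6983 on its own.

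Id3 (ENSMUSG00000007872.3, chromosome 4, 136143497 to 136145755), an inhibitor of helix-loop-helix transcription factors, was at 10.9, 28.4, 21.2, 32.0, 19.5 and 34.5 CPM in VDD1 to VDD6 and at 20.7, 10.2, 14.98, 32.3, 23.6 and 22.3 CPM in VDS1 to VDS6. Low and high livers were found in both groups, with a log2-fold change of 0.24 (standard error 0.28, edgeR, adjusted p = 0.722). Id3 was not low in the livers that were low in Cd163.

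Over the 10 members, 0 were DEGs by edgeR, where 0.0402% of all genes tested were DEGs in either direction, and 0 by DESeq2, where 2.03% were. At an unadjusted p under 0.05, 4 members were lower in VDD-F1 (Cd163, Clec4f, Timd4 and Folr2), against 6.29% of all genes tested, and 0 were higher, against 9.55%. By DESeq2's Wald test 3 were lower (Clec4f, Timd4 and Folr2) at the same threshold, against 6.8% of all genes, and 0 higher, against 9.89%. The members' median log2-fold change was -0.29, beside 0.004 over all genes tested. The count of lower members was 2 without VDD5 or without VDS3, and 1 without VDS2, the VDS-F1 liver with the most Clec4f, Timd4 and Folr2. Over all 12453 genes, 693 were lower without VDD5, 585 without VDS3 and 835 without VDS2. With the set of mice as a covariate 5 members were lower, against 911 of the 12453 genes.

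The proportions among the members differed between livers, as shown by the ratio of each to Clec4f within a liver (log2, CPM over CPM). Cd163 over Clec4f was -1.58 in VDD1 and -1.60 in VDD3, and -4.63, -4.70, -3.62 and -4.66 in VDD2, VDD4, VDD5 and VDD6. In VDS-F1 livers the same ratio was between -2.06 and -1.53, with a mean of -1.80 ± 0.21 (SD, n = 6), so the step in Cd163 was far larger than that in Clec4f. Marco over Clec4f had means of -2.30 ± 0.70 (VDD-F1) and -3.34 ± 0.32 (VDS-F1) (SD, n = 6 each). Adgre1 over Clec4f had means of -1.07 ± 0.51 and -1.76 ± 0.14, and was above the highest VDS-F1 liver in every VDD-F1 liver except VDD1. Vsig4 over Clec4f had means of -1.46 ± 0.27 and -1.66 ± 0.13, so these 2 genes kept nearer to one ratio.

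**Figure D2:**
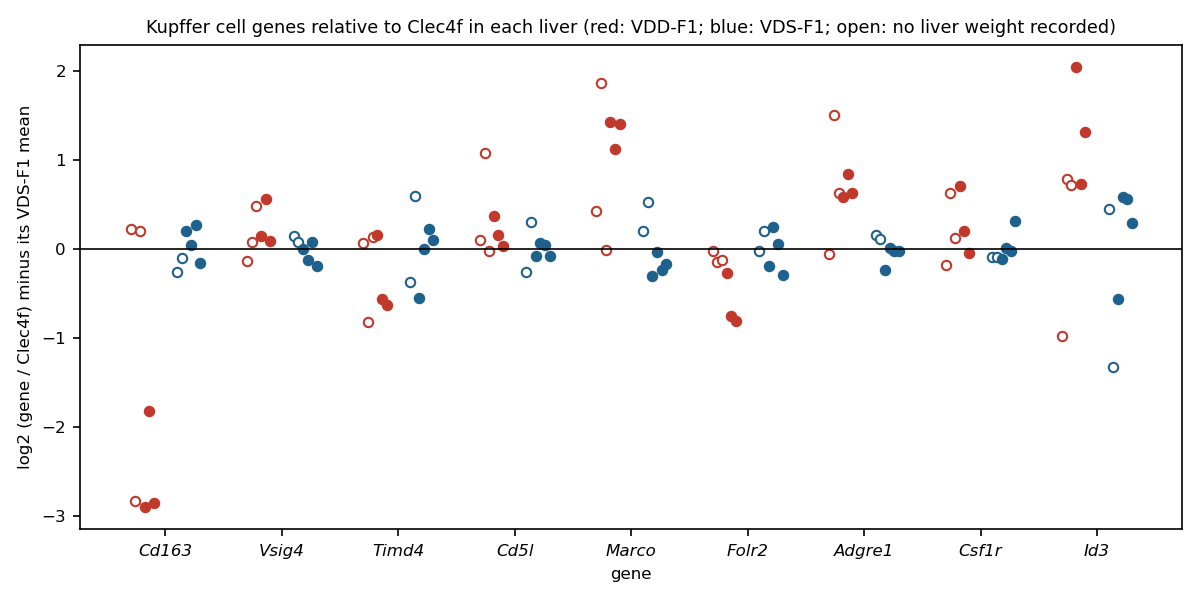
Ratio of each of the other 9 genes to Clec4f in each liver (log2), with the gene's VDS-F1 mean subtracted, so that 0 is the VDS-F1 mean; VDD-F1 is red, VDS-F1 blue, and open points had no liver weight recorded. Cd163 is low in VDD2, VDD4, VDD5 and VDD6, while Marco and Adgre1 lie above 0 in most VDD-F1 livers.

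In the 7 mice with a recorded liver weight (3 VDD-F1 and 4 VDS-F1), the same fit gave 6 members lower in VDD-F1 at an adjusted p under 0.05, against 5.12% of all genes tested, and 0 higher, against 5.85%. Of these, Cd163, Folr2 and Timd4 were DEGs, where 1.24% of all genes were DEGs lower in VDD-F1 and 3.06% DEGs higher, and 0 members were DEGs higher. Cd163 had means of 1.79 ± 0.983 CPM in 3 VDD-F1 and 17.8 ± 3.32 CPM in 4 VDS-F1 livers (SD). Its log2-fold change was -3.28 (standard error 0.29), which is 9.70-fold lower, with an adjusted p of 3.6e-05 from edgeR's quasi-likelihood test. The log2-fold change was -1.43 for Folr2 (edgeR, adjusted p = 0.00252) and -1.13 for Timd4 (edgeR, adjusted p = 0.00698). Clec4f fell by 0.81 (adjusted p = 0.0141), Cd5l by 0.64 (adjusted p = 0.0151) and Csf1r by 0.61 (adjusted p = 0.00775) on the log2 scale, in edgeR's test. For the same 6 genes every VDD-F1 liver of this set lay below every VDS-F1 liver of it, which held for 11.4% of all genes tested.

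The other 4 members did not pass in these 7 mice. Vsig4 had a log2-fold change of -0.46 (edgeR, adjusted p = 0.198), Marco of 0.69 (edgeR, adjusted p = 0.0707), Adgre1 of -0.035 (edgeR, adjusted p = 0.931) and Id3 of 0.29 (edgeR, adjusted p = 0.493). In the 5 mice without a recorded weight (3 VDD-F1 and 2 VDS-F1), 0 members passed at an adjusted p under 0.05, and 0 at an unadjusted p under 0.05, which 3.79% of all genes reached in either direction. There the log2-fold changes were -0.39 for Cd163, -0.71 for Timd4, -0.47 for Folr2, -0.26 for Clec4f, 0.091 for Cd5l and 0.036 for Csf1r. Cd163 in VDD1 to VDD3 was at 21.3, 1.98 and 12.7 CPM, so that VDD2 alone of this set had the low level of VDD4 to VDD6.

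**Figure D3:**
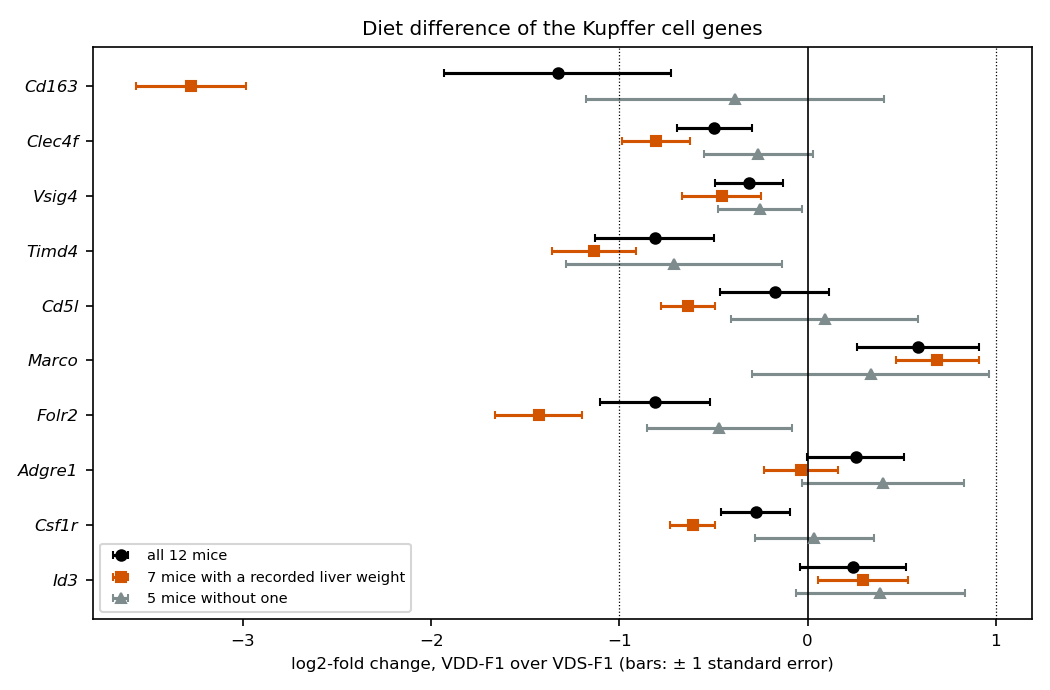
Log2-fold change of VDD-F1 over VDS-F1 livers for the 10 genes, with bars of 1 standard error, in all 12 mice (circles), in the 7 with (squares) and in the 5 without (triangles) a recorded liver weight; dotted lines mark -1 and 1. Cd163 was at -3.28 in the 7 mice, -0.39 in the 5 and -1.33 in all, while Marco, at 0.59 in all, lay above 0 in each.

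The difference between the sets was tested as a diet by set interaction. For Cd163 the interaction was -2.89 on the log2 scale (standard error 0.89), with an adjusted p of 0.324 in edgeR's test. For Folr2 it was -0.96 (edgeR, adjusted p = 0.550). These 2 members were lower at an unadjusted p under 0.05, against 4.77% of all genes, and 0 were higher, against 4.24%. The interaction of Cd163 passed when VDD2 was left out (-3.41, edgeR, adjusted p = 0.00324), and in no other fit that left out 1 mouse.

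The sets themselves were compared with the diet held in the model. Cd5l, Folr2 and Timd4 were lower in the mice with a recorded liver weight at an unadjusted p under 0.05, against 7.99% of all genes lower and 5.87% higher, and 0 members were higher. The log2 differences were -0.59 for Cd5l (adjusted p = 0.341), -0.70 for Folr2 (adjusted p = 0.204) and -0.63 for Timd4 (adjusted p = 0.348, edgeR for each). For Cd163 the log2 difference between sets was -1.28 (standard error 0.63, edgeR, adjusted p = 0.397).

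Of 15 other genes of Kupffer cells, all tested, 1 was higher (Slc40a1) and 1 lower (Fcna) in VDD-F1 at an unadjusted p under 0.05, shares near those of all genes tested (9.55% and 6.29%), with a median log2-fold change of 0.11. Fcna, the lectin ficolin A, was at 23.0, 14.9, 12.1, 9.47, 12.04 and 11.1 CPM in VDD1 to VDD6 and at 13.4, 25.2, 29.1, 29.1, 23.0 and 22.5 CPM in VDS1 to VDS6. VDD3 to VDD6 lay below every VDS-F1 liver, and the log2-fold change was -0.78 (edgeR, adjusted p = 0.113), or -1.25 in the 7 mice with a recorded weight (edgeR, adjusted p = 2.72e-04). Slc40a1, the iron exporter ferroportin, was 93.6 to 135 CPM in VDD-F1 and 70.1 to 96.5 CPM in VDS-F1 livers (log2-fold change 0.46, edgeR, adjusted p = 0.0855). Slc40a1 was higher by 0.48 on the log2 scale in the 7 mice with a recorded weight (edgeR, adjusted p = 0.00961). These were the 2 genes of the list called in that set, against 5.85% of all genes higher and 5.12% lower. DESeq2 called Fcna (adjusted p = 0.0226) and Slc40a1 (adjusted p = 0.00654) over all 12 mice. Hmox1, which degrades haem, had a log2-fold change of 0.30 (edgeR, adjusted p = 0.477).

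Most of the listed genes of recruited monocytes and macrophages lay in the opposite direction to Cd163. Of 12 genes 11 were tested, since Itgam did not pass the filter, and 9 of these were higher in VDD-F1 at an unadjusted p under 0.05, against 9.55% of all genes tested, and 0 lower, against 6.29%, with a median log2-fold change of 1.41. At an adjusted p under 0.05 edgeR called 0 of the 11 over all 12 mice, 1 (Gpnmb) with the set of mice as a covariate, and DESeq2 called 6 higher, Gpnmb, Trem2 and Itgax among them, and 0 lower. Several of them passed the filter through their VDD-F1 counts, so this count is a description. Gpnmb, a glycoprotein of lipid-laden macrophages, was at 0.379, 45.4, 1.43, 18.6, 16.8 and 7.41 CPM in VDD1 to VDD6 and at 0.0687 to 0.592 CPM in VDS-F1 livers. Trem2, a lipid receptor of such cells, was at 0.189, 8.40, 0.301, 3.36, 3.10 and 2.66 CPM in VDD1 to VDD6 and at 0.0694 to 0.885 CPM in VDS-F1 livers. Both were high in the livers where Cd163 was low. Itgax, an integrin subunit of dendritic cells and some macrophages, had means of 4.86 ± 4.12 and 0.976 ± 0.594 CPM (SD, n = 6 each, log2-fold change 2.33, edgeR, adjusted p = 0.0918).

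Without Fn1, which hepatocytes express strongly, the monocyte and macrophage genes summed to 37.4 to 224 CPM in VDD-F1 and 28.2 to 64.5 CPM in VDS-F1 livers, with the highest sum in VDD2. With Fn1 the sums ran the other way, at 1865 to 4074 CPM in VDD-F1 and 3110 to 4451 CPM in VDS-F1 livers. In the 7 mice with a recorded weight, 8 of the 11 genes were higher and 1 (Fn1) lower at an adjusted p under 0.05 by edgeR, against 5.85% and 5.12% of all genes. This count too is a description, since several of the 11 passed the filter through their VDD-F1 counts. The part of these cells in the levels of the 10 members was not tested. Of 12 genes shared by many myeloid cells, 2 were higher (Irf8 and Lyz2) and 0 lower at an unadjusted p under 0.05, against 9.55% and 6.29% of all genes, with a median log2-fold change of 0.36 and 0 at an adjusted p under 0.05 by edgeR or DESeq2. Over the 7 mice edgeR called 3 of them higher at an adjusted p under 0.05, Irf8, Lyz2 and Mpeg1 (the last named after its value was seen), and 0 lower. Lyz2, a lysozyme, was at 107 CPM in VDD2, 14.9 to 48.4 CPM in the other VDD-F1 and 24.0 to 37.8 CPM in VDS-F1 livers. Neutrophil markers were scarce, with 1 of 6 tested, as were lymphocyte markers, with 2 of 6. Over all 12 mice 0 of these passed an unadjusted p under 0.05 in either direction by edgeR, against 9.55% of all genes higher and 6.29% lower. In the 7 mice with a recorded weight 1 was higher at that threshold (Cd79a, 1 to 37 counts per liver over all 12 mice), against 12.9% of all genes, and 0 lower, against 12.5%.

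**Figure D4:**
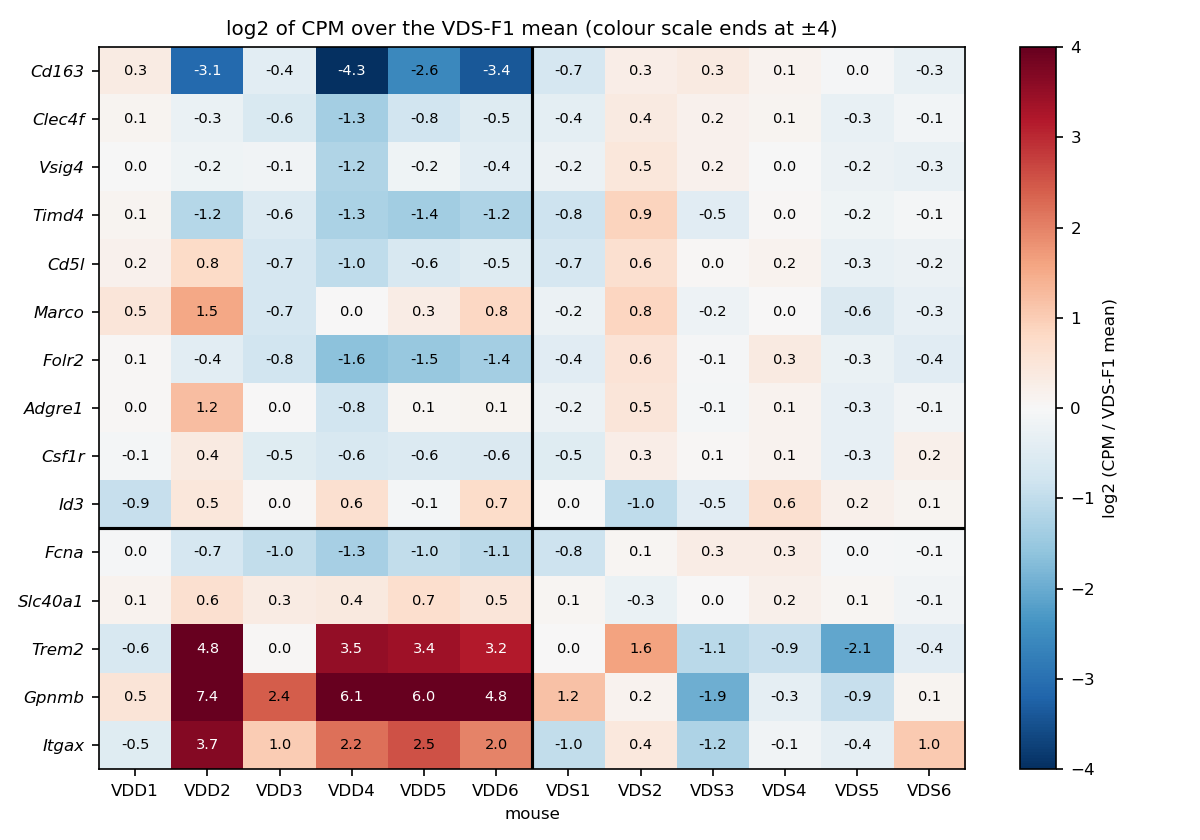
Level of the 10 genes (above the line) and of 5 genes of the other macrophage lists (below it) in each liver, as log2 of its CPM over the VDS-F1 mean; blue is below and red above that mean, and colours saturate at ±4. In VDD2, VDD4, VDD5 and VDD6 the row of Cd163 is deep blue where those of Trem2, Gpnmb and Itgax are red, while Vsig4 stays pale in all livers but VDD4.

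The niche of Kupffer cells is formed by the cells and ligands that keep their identity. Of 17 genes of niche signals and their receptors, 1 was lower (Bmp10) and 0 higher in VDD-F1 at an unadjusted p under 0.05, against 6.29% and 9.55% of all genes, with a median log2-fold change of 0.12. In the 7 mice with a recorded weight 2 were higher and 1 lower at that threshold, against 12.9% and 12.5% of all genes, so both counts were near or below that of genes at large. In these mice 1 was higher at an adjusted p under 0.05 by edgeR, against 5.85% of all genes (Tgfbr1, named after its value was seen). Bmp10, a ligand that stellate cells supply in the liver, had a log2-fold change of -0.61 (edgeR, adjusted p = 0.287). Id1, a close relative of Id3, had one of 0.61 (edgeR, adjusted p = 0.370). Tgfbr2, a receptor for transforming growth factor beta, had 74.8 CPM in VDD2 and 34.9 to 48.5 CPM in every other liver.

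Markers of the neighbouring cells were checked in the same fit, where 9.55% of all genes were higher and 6.29% lower in VDD-F1 at an unadjusted p under 0.05. Of 8 sinusoidal endothelial markers, 2 were lower (Clec4g and Stab2, with log2-fold changes of -0.28 and -0.25) and 1 higher (Lyve1, 0.39) in VDD-F1 at an unadjusted p under 0.05. Of 7 stellate cell markers, 1 was lower (Ecm1, -0.72) and 2 higher (Pdgfrb, 0.75, and Dcn, 0.39). Of 7 hepatocyte markers, 3 were lower (Serpina1c, -0.60, Cyp2e1, -0.75, and Hnf4a, -0.29) and 0 higher. At an adjusted p under 0.05 over all 12 mice, edgeR called 0 genes of these lists and DESeq2 called Ecm1, Serpina1c and Cyp2e1, all lower in VDD-F1. In the 7 mice with a recorded weight, where 6 of the 10 members passed and 5.12% of all genes were lower and 5.85% higher, edgeR called 2 endothelial markers lower (Stab2 and Mrc1), and 2 stellate markers higher (Pdgfrb and Dcn) and 1 lower (Ecm1, a DEG). It called 3 hepatocyte markers lower there (Hnf4a, Serpina1c and Cyp2e1, the last a DEG) and 1 higher (Alb), Mrc1 and Alb being named after their values were seen. The part of these cells in the levels of the members was not tested.

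The genes closest to Clec4f across the 12 livers were ranked by Pearson's r of log2 CPM among 12452 genes, a description over libraries that share their group structure and depth. The highest r was with Cfp (0.938), which encodes properdin, then Siglec1 (0.927), a sialic acid receptor of resident macrophages, Zfp408 (0.923), Folr2 (0.921) and the nuclear RNA Malat1 (0.910). Among the members, Vsig4 came 7th, Cd5l 23rd, Csf1r 26th, Timd4 27th and Cd163 30th, while Adgre1 ranked 1294th, Marco 4142nd and Id3 11927th. The nearest to Cd163 were Gna14 (0.968), Colec10 (0.961), Npr2 (0.959), Vipr1 (0.9499) and Mup15 (0.940), whose reads can be shared within the Mup family. For Cd163 the livers lie at separate high and low levels, so these r values mainly describe that step. In likeness to Cd163, Folr2 ranked 142nd, Timd4 158th, Clec4f 285th, Vsig4 447th, Csf1r 2225th, Cd5l 2883rd, Adgre1 6536th (r of -0.032), Marco 10087th (r of -0.44) and Id3 11331st (r of -0.62).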

How the data were processed

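Liver RNA (ribosomal RNA removed, strand-specific libraries) was sequenced from 12 mice. Reads were trimmed and aligned to mm10 by the authors with STAR (version not given in the sources used here) and GENCODE M15, and the deposited values are raw fragment counts per gene, not normalized, without and for each strand. STAR counts only fragments that map to a single place, so reads shared by related genes are lost. The reverse-strand count, 92.7% to 95.8% of the stranded counts, was used. Symbols and positions came from GENCODE M21, and 52489 of 52636 genes were matched.

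Counts were fitted with edgeR 4.0.16 in R 4.3.3 (TMM, quasi-likelihood test in its legacy form, Benjamini-Hochberg adjustment over all genes averaging 12 or more counts), where the methods of the study name DESeq2. DESeq2 1.42.0, other scalings, filters and strands, a covariate for the sets of mice, each set alone and each mouse left out were alternatives. Leaving out VDD2 and VDS6 together was chosen after seeing the data. Likeness used log2 CPM with a prior count of 2. Tables were made with pandas 2.3.3 and figures with matplotlib 3.10.9 in Python 3.11.15, and the fits were tested on simulated data. A member with few counts, such as Timd4, is measured less precisely than Csf1r.

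The 10 genes, the 9 other lists and the tests were chosen with earlier results of these data known. Named were all members, the 3 genes of each other list with the smallest p, and the 5 genes most like Clec4f and Cd163. Replicate numbers mark different mice.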

Additional observations from a re-analysis of the deposited data

Results flagged for a closer look

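In groups of 6 livers, the highest or lowest was checked for a gap to its neighbour wider than Dixon's critical value at the level of 0.05. Over 34 genes and 68 groups, 11 gaps were that wide, and 7 of them were in VDD2. Chance gives about 1 in 20 independent groups, but the same livers recur over related genes, so that rate does not apply to this count. Of the members, Timd4 stood out in VDS2 (9.44 CPM, others 2.86 to 5.25), as did Marco (10.9 CPM, others 4.03 to 6.19), and Adgre1 in VDD2 (41.5 CPM, others 10.3 to 18.8). Among the other lists VDD2 was far above the other VDD-F1 livers for Irf8 (17.6 CPM), Lyz2 (107 CPM), Ctss (97.1 CPM), Tgfbr2 (74.8 CPM) and Cd3e (3.55 CPM), and far below them for Serpina1c (1792 CPM). VDS2 was far above the other VDS-F1 livers for Lyz2 (37.8 CPM) and Trem2 (0.885 CPM). None of the 10 diet by set interactions passed an adjusted p under 0.05 in edgeR's test over all 12 mice. At an unadjusted p under 0.05, 2 were lower, against 4.77% of all genes, and 0 higher, against 4.24%.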

How the results depend on the processing

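Of the 10 members, 4 were lower and 0 higher in VDD-F1 at an unadjusted p under 0.05 (6.29% and 9.55% of all genes tested) and 0 were DEGs (0.0402%). The 5 mice without a recorded liver weight gave 0 lower (3.79% of all genes in either direction). The 7 with one gave 6 lower (12.5% of all genes), 1 higher (12.9%) and 3 DEGs lower (1.24%). Leaving out 1 mouse gave 1 to 4 lower (585 to 978 of 12453 genes) and 0 to 1 higher (911 to 1368 genes). It gave 0 to 2 DEGs lower, the 2 being Cd163 and Folr2 without VDD1 (0.385% of all genes). Replicate numbers mark different mice (correlations of same-numbered deviations from -0.08 to 0.10). The fit with the replicate block gave 1 member higher (1029 of 12453 genes), with Cd163 at -2.10, and changed no member's call at an adjusted p under 0.05. Over the other lists, 8 genes were lower, 15 higher and 0 DEGs. Lower genes were 4 with library totals alone and 1 in the 5 mice. Higher genes were 1 in the 5 mice, 24 in the 7 and 8 without VDD2 and VDS6. DEGs higher were 5 by DESeq2, 1 each with a total count of at least 12, no filter or the set as covariate, and 6 in the 7 mice, where 3 were DEGs lower. Leaving out 1 mouse gave 9 to 20 higher, 5 to 10 lower, 0 to 5 DEGs higher and 0 to 1 lower.

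Between sets 3 members were lower (7.99% of all genes), 5 by DESeq2 (8.58%) or with a total count of at least 12 (6.67%), 1 with library totals alone (6.99%) and 8 with no filter (5.92%), 1 of these a DEG (0.606%), and 1 was higher by DESeq2 (5.82%), with that total (4.47%) or with no filter (3.46%). Leaving out 1 mouse gave 1 to 8 lower (8 without VDS1, 8.05% of all genes) and 0 to 1 higher, and 1 to 6 interactions lower (6 without VDS2, 5.5% of all genes) with 0 to 1 DEGs (1 without VDD2, 0.956%). Folr2 had means of 0.957 and 1.44 CPM without strand. The log2-fold change turned in the 5 mice for Cd5l (0.091), Csf1r (0.036), Stab2 (0.11) and Hnf4a (0.071). It turned for Adgre1 without VDD2 and VDS6 (-0.092), in the 7 mice (-0.035) and without VDD2 (range with 1 mouse left out -0.067 to 0.39), and for Cd3e in the 7 mice (-0.37) and without VDD2 (range -0.034 to 0.83). Interactions turned when 1 mouse was left out, for Vsig4 without VDD4 or VDS1 (range -0.59 to 0.10), Timd4 without VDS1 (-1.52 to 0.20), Marco without VDD3 or VDS2 (-0.28 to 1.06), Adgre1 without VDD2 (-0.83 to 0.10), and Id3 without VDD2, VDD5, VDS2 or VDS4 (-0.69 to 0.33). The cause was not tested.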
